A study of Mus musculus with 8 samples.

Results

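The genes described here carry RIKEN clone names of the 1700 series, that is, symbols made of 1700, a clone code and the ending Rik. Of the 19906 protein-coding genes in the table of mouse testis transcripts, 97 had such a symbol and all were taken, whatever their level. RNA came from whole testes of 2-month-old mice, 4 Tmem232-/- and 4 Tmem232+/+, with 1 library per mouse. The Tmem232-/- mice lack exons 5 to 8 of Tmem232 in all tissues after CRISPR-Cas9 editing of C57BL/6 oocytes, and the Tmem232+/+ mice carry the intact gene. No other allele or treatment was given, and whole testis holds all germ cell stages together with somatic cells. Of the 97 genes, 95 passed the filter on low counts and were among the 15787 genes tested. The remaining pair, 1700031F05Rik and 1700066C05Rik, had at most 18 and 2 counts in any library.

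RIKEN clone names were given to full-length mouse cDNAs before anything was known of their products, and the 1700 clones came from a library of adult testis. Many such genes are transcribed in spermatids, the haploid cells that follow meiosis, where the acrosome, the flagellum and the condensed nucleus are built. Some have since been traced to the microtubules of the flagellum, to the acrosome or to fertilisation, while others still have no known role. The symbols used here are those of the deposited table, with later names added where they are known.

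The libraries held between 15428421 and 16350871 counts. Levels are given as CPM, counts scaled to a common library total after TMM normalisation, and listed in the order of replicates 1 to 4, or as FPKM, which also divides by transcript length, where genes are compared with each other. Tmem232 itself averaged 131 ± 11.8 CPM under the label Tmem232-/- and 109 ± 2.08 CPM under the label Tmem232+/+ (SD, n = 4 each), and its log2 fold change of 0.27 had an adjusted p of 0.0335 in edgeR. That call was lost without replicate 1 or 2 of the former label or replicate 2 or 4 of the latter, with an adjusted p of 0.0858 to 0.0892, and with the replicate number as a block (0.114). The direction goes against the label, and a single count per gene does not separate the deleted exons from the others. The libraries are therefore named by their labels, and each direction below rests on them. Markers of spermatids also differed between the labels. Of 12 round spermatid markers 11 were higher in the libraries labelled Tmem232-/- at an adjusted p under 0.05 in edgeR. Their median log2 fold change was 1.12. Of 13 elongating spermatid markers 12 were higher by the same rule, with a median of 1.61. Of all tested genes, 10.3% were higher. The summed level of the round spermatid markers ranged from 845 to 1113 CPM against 412 to 607 CPM, and that of the elongating spermatid markers from 1886 to 2883 CPM against 807 to 1341 CPM, with no marker of either list at 0 in all libraries. Of 8 spermatocyte markers 0 were higher and 1 was lower at an adjusted p under 0.05, where 1.46% of all tested genes were lower. The part of these markers in the results below was not tested, and in bulk RNA a change in the number of cells of a type and a change in RNA per cell cannot be told apart.

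The 1700 series genes were well expressed in these testes. The median FPKM of the tested ones over all libraries was 32.2, against 8.998 for all tested genes, and 87 of the 97 stood in the upper 50% of the table. The highest mean was 452 FPKM and the lowest 0.273 FPKM, and 20 genes reached 100 FPKM. They took 0.749% ± 0.0576 (SD, n = 4) of all counts in the libraries labelled Tmem232-/- and 0.593% ± 0.0662 (SD, n = 4) in the others. The groups met at the edge, with 0.683% in replicate 3 of either label.

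In the comparison of the genotypes, 62 of the 95 tested genes were higher in the libraries labelled Tmem232-/- at an adjusted p under 0.05 in edgeR, where 10.3% of all tested genes were. None was lower (0 of 95, against 1.46% of all tested genes), although 2 were lower at an unadjusted p under 0.05, against 10.5% of all tested genes, and DESeq2 and limma-voom also called 0. At an unadjusted p under 0.05 and at least a 2-fold difference, 41 were higher, against 5.48% of all tested genes, and 0 were lower, against 0.114%. The median log2 fold change of the 95 genes was 0.77, with the middle 50% of values between 0.16 and 1.397, where the median of all tested genes was -0.054. Among the 41 genes, 12 rose by 4-fold or more, against 1.15% of all tested genes, and 29 rose by between 2-fold and 4-fold. Of the 12, 8 rose by 8-fold or more, against 0.386%. These 8 are the genes that passed the low-count filter through the libraries labelled Tmem232-/- alone, where they are high, so that their number is no support. They are also part of the 41 and of the 62 called. With at least 10 counts in every library, 33 of 87 tested genes were higher by the 2-fold rule and 54 were called. In 62 genes every library labelled Tmem232-/- lay above every other library, which held for 11.8% of all tested genes. They were the same genes as the 62 called by edgeR, since 0 called genes overlapped and 0 of the 33 other genes were separated in this direction.

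**Figure D1:**
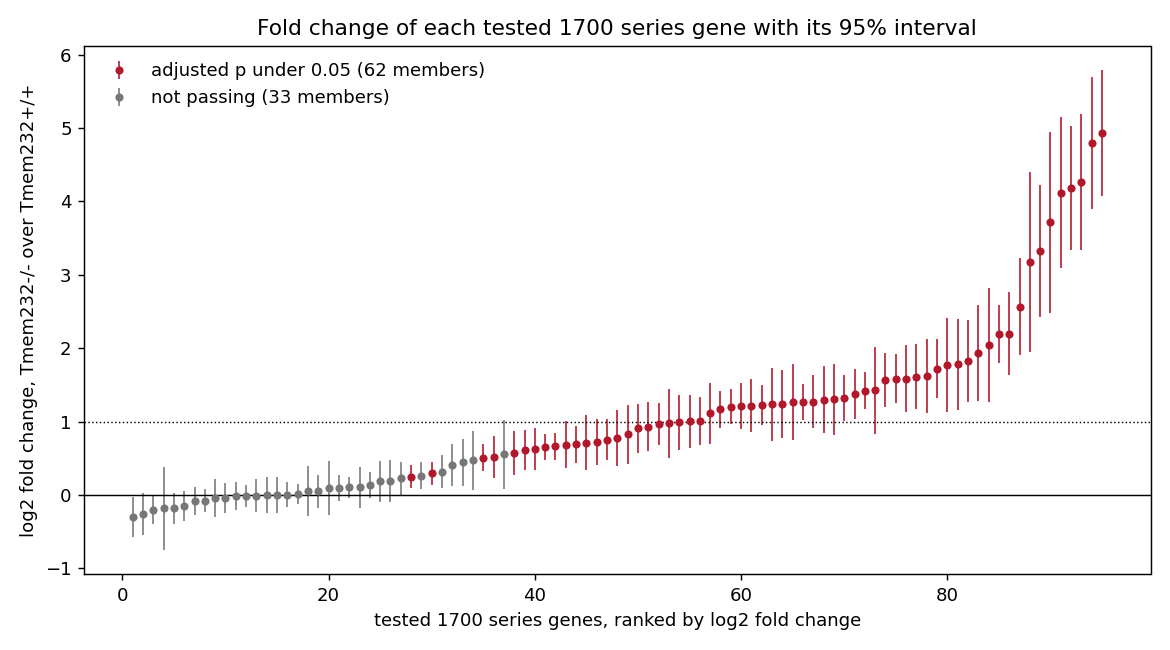
Log2 fold change of each of the 95 tested 1700 series genes, in rank order, with its 95% confidence interval derived from the edgeR fit. Red points are the 62 genes with an adjusted p under 0.05 and grey points the 33 others, and the dotted line marks a fold change of 2. The red points reach 4.93 and the grey values stay between -0.30 and 0.55.

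The largest differences were in genes that were close to silent in the libraries labelled Tmem232+/+. Since these genes entered the test through the libraries where they are high, their values are given as a description, without a test. 1700008P02Rik (Entrez ID 69347, chromosome 3 of GRCm38 from 6615413 to 6620443), which has no named domain, had 50, 33, 29 and 51 counts in replicates 1 to 4 labelled Tmem232-/- and 2, 1, 1 and 1 counts in those labelled Tmem232+/+. Summed and scaled, the counts of 163 and 5 gave a ratio of 33.4, with an exact 95% interval of 14.04 to 104 that covers counting error alone. The fitted log2 fold change was 4.93, with a standard error (SE) of 0.39. 1700080E11Rik (Entrez ID 73532, chromosome 9 from 105143344 to 105145082), now Nudt16l2, encodes a NUDIX domain, the fold of enzymes that cleave nucleoside diphosphates linked to another group. It had 66, 62, 36 and 94 counts against 2, 1, 3 and 3 counts, a ratio of 29.4 with an interval of 15.2 to 65.0. Its fitted log2 fold change was 4.799 (SE 0.41). 1700071K01Rik, with an SPFH domain as in prohibitins, had 110 counts in sum against 6, a ratio of 18.8 with an interval of 8.37 to 52.3. Of the 6 counts, 4 came from replicate 3, and without that library its fitted log2 fold change was 5.19 in place of 4.12.

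A second pair of genes, which entered the test in the same way, reached slightly higher levels. 1700016C15Rik (Entrez ID 69428, chromosome 1 from 177728122 to 177753309) is the homolog of human C1orf100, a microtubule inner protein of sperm since named Spmip3. It had 9.52, 6.59, 4.62 and 10.8 CPM in the 4 libraries labelled Tmem232-/- and 0.374, 0.182, 0.887 and 0.184 CPM in those labelled Tmem232+/+, with a log2 fold change of 4.26 (SE 0.42). 1700012A03Rik (Entrez ID 76382, chromosome 6), a protein of 130 codons without a listed domain, had 8.25, 6.65, 5.31 and 11.9 CPM against 0.374, 0.182, 0.887 and 0.307 CPM, a log2 fold change of 4.18 (SE 0.38). Without replicate 3 labelled Tmem232+/+ the log2 fold changes were 4.99 for 1700016C15Rik and 4.799 for 1700012A03Rik. In both genes that replicate was the highest of the libraries labelled Tmem232+/+.

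Among the genes with the largest rises, 1700042G07Rik, 1700020A23Rik and 1700015G11Rik also had few counts in the libraries labelled Tmem232+/+. 1700042G07Rik, with 90 codons in 2 exons, had 173 counts in sum against 13, a ratio of 13.6 with an interval of 7.77 to 26.1. 1700020A23Rik, with 131 codons, had 200 against 20, a ratio of 10.3 with an interval of 6.46 to 17.2. 1700015G11Rik, the coiled-coil protein Ccdc179 of 71 codons and the shortest of the series, had 162 against 18, a ratio of 9.23 with an interval of 5.66 to 15.97. They too passed the filter through the libraries labelled Tmem232-/- alone, so that their ratios are given as a description. Their counts under the label Tmem232+/+ came in good part from replicate 3, with 8 of 13, 10 of 20 and 10 of 18. Without that library the fitted log2 fold changes rose from 3.71 to 4.67 in 1700042G07Rik, from 3.32 to 3.93 in 1700020A23Rik and from 3.17 to 3.94 in 1700015G11Rik. The exons of 1700042G07Rik and 1700020A23Rik overlap the genes Gm49337 and Gm28372 on the same strand, so reads may be shared between them.

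The other large rises began from a clear level. 1700034E13Rik (chromosome 18), with a C2HC zinc finger, had 16.3, 12.8, 8.47 and 14.8 CPM in the 4 libraries labelled Tmem232-/- and 1.87, 1.21, 3.80 and 1.97 CPM in those labelled Tmem232+/+, for a log2 fold change of 2.57 (SE 0.30). 1700016H13Rik (chromosome 5), the homolog of human C4orf36, had 20.6, 17.7, 14.5 and 18.6 CPM against 2.99, 2.36, 6.71 and 3.56 CPM, a log2 fold change of 2.19 (SE 0.26). 1700001K19Rik (chromosome 12), without a listed domain, had 18.2, 15.1, 12.5 and 17.4 CPM against 2.87, 2.66, 4.37 and 3.93 CPM, a log2 fold change of 2.19 (SE 0.18). The gap between the labels was wide beside the spread within them in these genes, and the adjusted p was at most 0.000148 in edgeR. 1700092M07Rik (chromosome 19), the testis-expressed protein Tex54, had 12.7, 9.92, 7.84 and 10.8 CPM against 1.74, 1.03, 5.003 and 2.27 CPM, a log2 fold change of 2.04 (SE 0.35, adjusted p = 0.00214, edgeR), which was 2.64 without replicate 3 labelled Tmem232+/+.

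**Figure D2:**
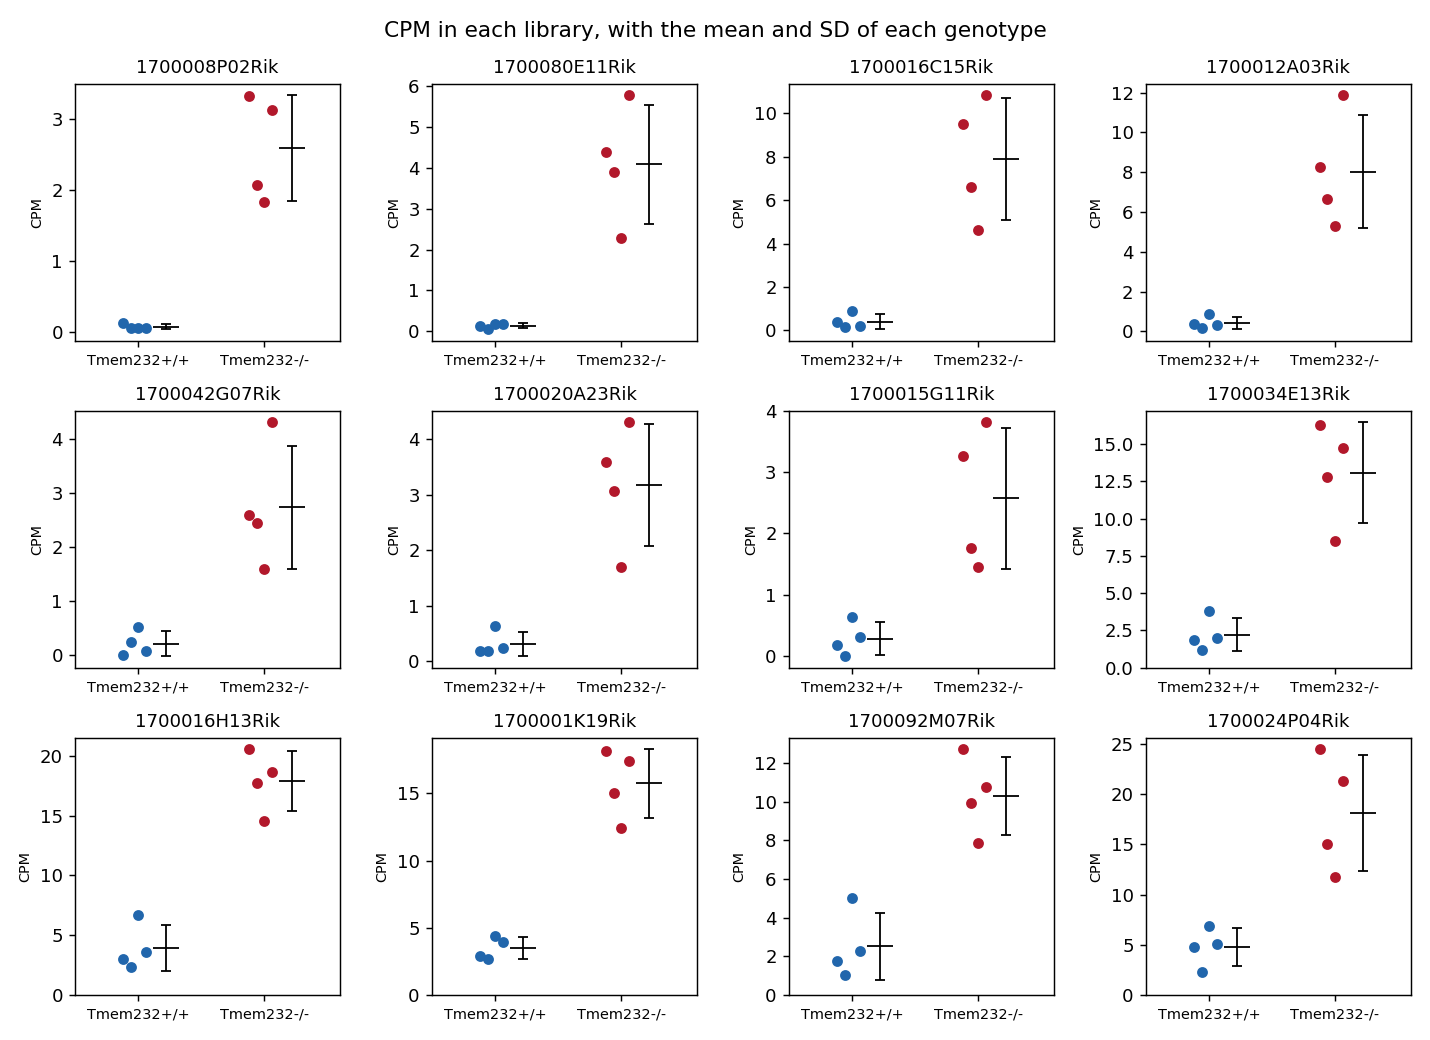
CPM of the 12 genes with the largest rises that met the naming rule, in each library (points), with the mean and SD of each genotype beside them (black). Each panel has its own linear scale, and in every panel the 4 libraries labelled Tmem232-/- (red) lie above the 4 labelled Tmem232+/+ (blue).

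Groups by role were put together after the values had been seen and carry no test of their own. The 65.3% of the tested series given here and below includes the 8 genes that passed the low-count filter through the libraries labelled Tmem232-/- alone. With at least 10 counts in every library, 54 of 87 tested genes of the series were called. Of the genes of the series with a known place in the acrosome or in fertilisation, 3 of 3 rose, where 65.3% of the tested series did. 1700024P04Rik (Entrez ID 69382, chromosome 13 from 98984090 to 98984565), now H2bl1, encodes an H2B histone variant found below the acrosome in a single exon of 123 codons. It had 24.5, 15.1, 11.8 and 21.3 CPM in the 4 libraries labelled Tmem232-/- and 4.798, 2.30, 6.84 and 5.098 CPM in those labelled Tmem232+/+, for a log2 fold change of 1.93 (SE 0.30, adjusted p = 0.000931, edgeR). 1700029I15Rik, now Frey1, is needed for sperm to fuse with the oocyte. It had 7.99, 8.35, 6.70 and 10.4 CPM against 3.74, 1.998, 5.003 and 3.19 CPM, a log2 fold change of 1.26 (SE 0.24, adjusted p = 0.00357, edgeR), and its exons overlap those of Mapk8ip1 on the opposite strand. 1700016D06Rik, of the family of the acrosomal protein Spaca7, stood just inside a fold change of 2, with 38.3, 29.2, 23.8 and 27.2 CPM against 12.96, 12.05, 18.6 and 15.6 CPM and a log2 fold change of 1.00. 1700024J04Rik stood just outside with 0.99, although its counts were not whole in any of the 8 libraries and its level is uncertain.

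Members of the ciliary and flagellar axoneme formed the largest group with a known place, and 9 of 12 rose, with a median log2 fold change of 0.73. This stood beside 65.3% of the tested series and 37 of the 56 tested genes with no role assigned. The 9 include 1700016C15Rik, which passed the low-count filter through the libraries labelled Tmem232-/- alone, so that its rise adds no support. Microtubule inner proteins line the inside of the doublet microtubules of the axoneme and stabilise them. Besides 1700016C15Rik, the largest changes were in 1700013F07Rik, now Cfap276, and in 1700019N19Rik, now Spmip5. 1700013F07Rik had 71.2, 54.6, 47.4 and 60.7 CPM in the 4 libraries labelled Tmem232-/- and 22.9, 16.2, 38.8 and 21.6 CPM in those labelled Tmem232+/+, for a log2 fold change of 1.23 (SE 0.22, adjusted p = 0.00299, edgeR). 1700019N19Rik had 110.2, 90.8, 77.0 and 108 CPM against 39.9, 30.8, 55.7 and 39.5 CPM, a log2 fold change of 1.22 (SE 0.17, adjusted p = 0.000424, edgeR). The other 6 that rose had log2 fold changes between 0.61 and 0.93, below a fold change of 2. They were 1700001L19Rik (Cfap90), 1700001C02Rik (Fam166c), 1700029J07Rik (Cfap96), 1700007K13Rik (Pierce1), 1700028P14Rik (Cfap95) and 1700012P22Rik (Cfap107), with means of 32.9 to 160 FPKM in the libraries labelled Tmem232-/-. 1700094D03Rik (Cfap141) and 1700021F07Rik (Cimip1) had log2 fold changes of 0.47 and 0.44 with adjusted p of 0.137 and 0.0769 in edgeR. 1700012B09Rik, listed at the base of the cilium, had 121 ± 22.3 FPKM against 116 ± 25.1 FPKM (SD, n = 4 each), a log2 fold change of 0.10 with a 95% interval of -0.27 to 0.46.

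Of the genes for small GTPase signalling 3 of 5 rose, a share near the 65.3% of the series. 1700009N14Rik, a relative of the nuclear transport GTPase Ran, had 159, 132, 104 and 124 CPM in the 4 libraries labelled Tmem232-/- and 46.1, 39.2, 64.5 and 50.1 CPM in those labelled Tmem232+/+, for a log2 fold change of 1.38 (SE 0.16, adjusted p = 0.000123, edgeR). Of the genes on chromosome 5 with the aminoterminal motif of Ras exchange factors, 1700001J03Rik and 1700123K08Rik rose, with log2 fold changes of 0.97 and 0.72. The remaining one, 1700018F24Rik, had 87.6, 82.9, 78.9 and 87.5 CPM against 86.9, 75.4, 92.5 and 81.2 CPM, so that the labels overlapped fully, although its counts were not whole in any of the 8 libraries and its level is uncertain. Its log2 fold change was 0.0037, with a 95% interval of -0.16 to 0.17. 1700006A11Rik, with a RhoGAP domain, had a log2 fold change of 0.10 with an interval of -0.04 to 0.24.

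Of 9 genes for membrane or calcium-binding proteins, 7 rose, a share near that of the whole series, where 10.3% of all tested genes were higher. The 7 include 1700071K01Rik, which passed the low-count filter through the libraries labelled Tmem232-/- alone, so that its rise adds no support. 1700019D03Rik, a small anchor that holds protein kinase A at the plasma membrane, had 51.2 ± 10.2 FPKM against 16.1 ± 7.40 FPKM (SD, n = 4 each) and a log2 fold change of 1.59. 1700023F06Rik, now Efcab15, and 1700109H08Rik carry EF-hands, which bind calcium, and had log2 fold changes of 1.58 and 1.30. 1700057G04Rik, a phospholipid scramblase, had 23.2, 21.8, 18.7 and 20.04 CPM in the 4 libraries labelled Tmem232-/- and 7.73, 7.99, 10.01 and 9.15 CPM in those labelled Tmem232+/+, for a log2 fold change of 1.26 (SE 0.11, adjusted p = 3.26e-05, edgeR). 1700017D01Rik and 1700025F22Rik, now Ms4a20 and Ms4a19, are neighbours on chromosome 19 with 8.77 kb between them and encode membrane proteins of the CD20 family. They had log2 fold changes of 0.30 and 0.26, of which the first passed the test (adjusted p = 0.0178, edgeR) and the second did not (adjusted p = 0.0763, edgeR), a difference between them that was not tested. Among the genes for enzymes, 1700061G19Rik, now the acyl-CoA synthetase Acsbg3, had 108, 111, 95.3 and 86.4 CPM against 41.1, 37.2, 49.8 and 50.7 CPM and a log2 fold change of 1.16 (SE 0.11, adjusted p = 5.27e-05, edgeR).

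Of the 8 genes of the series with the highest FPKM, only 1700001F09Rik passed the test, where 10.3% of all tested genes were higher. A list of 8 genes is too short to tell its share from that of all tested genes. Of the 32 tested genes of the series with the highest FPKM, 16 rose, against 7.53% of other tested genes in that range. 1700029F12Rik (Entrez ID 66479, chromosome 13 from 97021864 to 97035254), the highest at 452 FPKM and rank 118 in the table, has 147 codons and no listed domain. It had 451, 407, 395 and 437 CPM in the 4 libraries labelled Tmem232-/- and 437, 358, 512 and 396 CPM in those labelled Tmem232+/+, for a log2 fold change of -0.01 with a 95% interval of -0.24 to 0.22. 1700010I14Rik (Entrez ID 66931, chromosome 17 from 8988320 to 9008319), with a domain shared with a partner of the RNA-binding protein translin-associated factor X, had 836, 737, 733 and 746 CPM against 733, 631, 787 and 702 CPM. Its log2 fold change was 0.10, with an interval of -0.08 to 0.27, and the labels overlapped in both genes. 1700020D05Rik, a single-exon gene of the MAGE family, had 302 ± 18.4 FPKM against 298 ± 45.3 FPKM (SD, n = 4 each), a log2 fold change of 0.05 with an interval of -0.17 to 0.28. 1700074P13Rik, a trypsin-like serine protease, had 414, 336, 338 and 374 CPM against 298, 254, 345 and 276 CPM, a log2 fold change of 0.32 with an interval of 0.09 to 0.55 that did not pass over all tested genes (adjusted p = 0.0747, edgeR). 1700037H04Rik, the homolog of human C20orf27, had 309, 303, 295 and 301 CPM against 336, 286, 293 and 305 CPM, and 1700102P08Rik, the homolog of human C3orf62, had 221, 185, 194 and 199.7 CPM against 202, 192, 243 and 208 CPM. Their log2 fold changes were -0.01 and -0.08.

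1700001F09Rik, of the Takusan family, was the only one of the 8 most abundant genes that passed the test. It had 291, 211, 198 and 183 CPM in the 4 libraries labelled Tmem232-/- and 150.1, 128, 167 and 149 CPM in those labelled Tmem232+/+, for a log2 fold change of 0.57 (SE 0.14, adjusted p = 0.0182, edgeR). The adjusted p rose to 0.0586 without replicate 2 and to 0.0526 without replicate 4 labelled Tmem232+/+. Takusan genes exist in many similar copies on chromosome 14, and the counts of 1700001F09Rik were not whole in any of the 8 libraries, so that its level is uncertain.

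Of the genes with a tie to mitochondria, 0 of 3 passed the test, where 65.3% of the tested series and 10.3% of all tested genes were higher. 1700029P11Rik, which resembles a subunit of respiratory complex I and has a single exon, had 198, 173, 183 and 184 CPM in the 4 libraries labelled Tmem232-/- and 223, 183, 241 and 203 CPM in those labelled Tmem232+/+, for a log2 fold change of -0.20 with a 95% interval of -0.40 to -0.01 (adjusted p = 0.182, edgeR). 1700021F05Rik, now Mtres1, which guards mitochondrial transcription under stress, had 28.1 ± 4.07 CPM against 28.1 ± 2.57 CPM (SD, n = 4 each), and its interval ran from -0.24 to 0.24. 1700066M21Rik had a log2 fold change of -0.02 with an interval of -0.21 to 0.17. In the remaining role groups, 2 of 3 genes for enzymes, 1 of 2 for meiosis and 0 of 2 tested MAGE genes were higher. Those for enzymes include 1700080E11Rik, which passed the low-count filter through the libraries labelled Tmem232-/- alone, so that its rise adds no support. The most negative values of the series belonged to 1700064H15Rik and 1700080G18Rik, both without a listed domain. 1700064H15Rik had 4.46, 5.21, 5.06 and 4.49 CPM against 6.11, 5.75, 6.52 and 5.28 CPM, a log2 fold change of -0.30 (adjusted p = 0.161, edgeR), and was the single gene in which every library labelled Tmem232+/+ lay above the others, which held for 6.88% of all tested genes. 1700080G18Rik had 4.99, 3.77, 4.05 and 4.61 CPM against 5.42, 4.96, 5.32 and 5.22 CPM, a log2 fold change of -0.27 (adjusted p = 0.234, edgeR). Its counts were not whole in 5 libraries, so that its level is uncertain.

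In all, 33 tested genes did not pass, with log2 fold changes from -0.30 to 0.55, of which 19 were above 0 and 14 below. For 28 of them the 95% interval stayed within a fold change of 1.5 in either direction, so that these libraries limit the difference to less than that. 1700030K09Rik was the tightest of the genes chosen for a small difference, with 59.6 ± 1.01 CPM against 59.3 ± 3.19 CPM (SD, n = 4 each) and an interval of -0.13 to 0.14. 1700088E04Rik had 94.9 ± 8.13 CPM against 95.3 ± 15.8 CPM (SD, n = 4 each). Its counts were not whole in any of the 8 libraries, so that its level is uncertain. The exons of 1700030K09Rik and 1700088E04Rik overlap genes on the opposite strand, Cherp for the first and Micall1 and Polr2f for the second. 1700028K03Rik, now Spo16, which acts in meiotic recombination, had a log2 fold change of -0.04 with an interval of -0.30 to 0.21, and its exons overlap those of Glmn and Gm42669. 1700066C05Rik, a MAGE family gene that was too low to test, had 0 to 1 counts in the libraries labelled Tmem232-/- and 1 to 2 counts in the others. The remaining MAGE gene, 1700080O16Rik, had a log2 fold change of 0.41 (adjusted p = 0.0678, edgeR). 1700031F05Rik had between 9 and 18 counts against 4 to 14 counts.

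Fold changes differed along the range of levels, but the low end is shaped by the filter. There, 8 tested genes had under 10 counts in at least 1 library, passed the filter through the libraries labelled Tmem232-/- and were all called, with log2 fold changes of 3.17 or more, so that the counts at the low end are no support. Of the 32 tested genes with the highest FPKM, 16 rose, with a median log2 fold change of 0.31. In the middle of the range 24 of 31 rose, with a median of 1.16, and at the low end 22 of 32 rose, with a median of 1.13. Tested genes outside the series in the same FPKM ranges were higher in 7.53%, 13.4% and 10.5% of cases. Across the 95 genes, which share libraries and are not independent replicates, the log2 of the mean FPKM and the log2 fold change had a Pearson r of -0.50 and a Spearman rho of -0.37. The mean itself contains the libraries in which the rising genes are high. The 95 also include the 8 genes above, which lie at the low end with large rises. No correlation without them is given, so that these values are no support either. Of the 20 genes at 100 FPKM or more, 6 rose, where 10.3% of tested genes of any level were higher. The share of all tested genes at 100 FPKM or more was not counted.

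**Figure D3:**
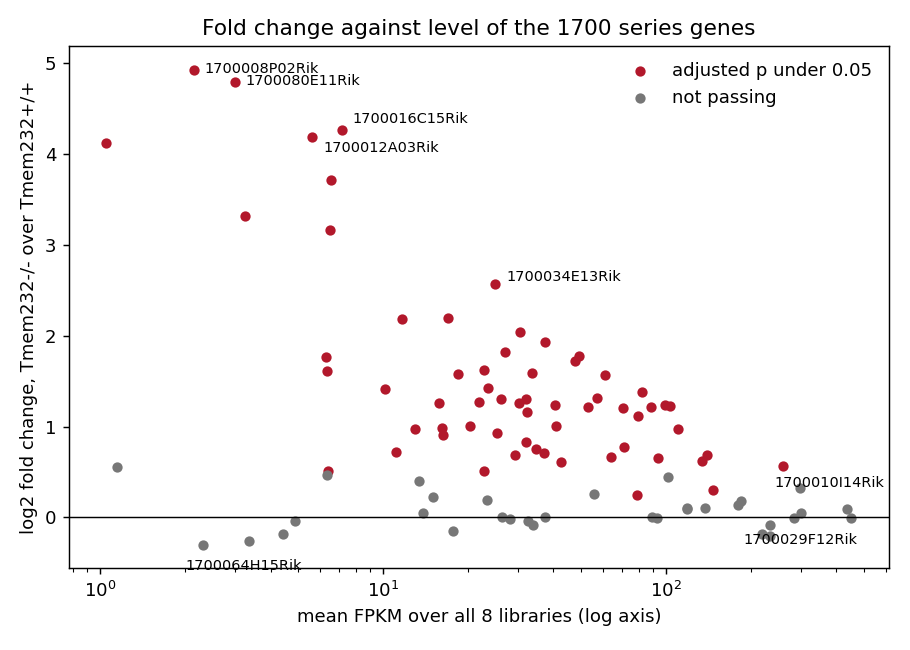
Log2 fold change of the 95 tested genes against their mean FPKM over all libraries on a log axis, red where the adjusted p in edgeR was under 0.05 and grey otherwise. The genes with the largest values, such as 1700008P02Rik at 4.93, lie under 10 FPKM, and the most abundant gene, 1700029F12Rik, lies at -0.01.

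By annotation, 18 of 27 tested genes with a named Pfam domain rose, 19 of 32 with a domain of unknown function and 25 of 36 with no listed domain, all near the 65.3% of the series. The median log2 fold changes were 1.00, 0.66 and 1.22. On the X chromosome 3 of 4 tested genes rose and on the autosomes 59 of 91, where 10.3% of all tested genes were higher. That share was not split by chromosome. The series is spread over 20 chromosomes. Gene models of GENCODE were matched for 87 genes, with a median of 210 codons and 4 exons, and 4 had a single exon. Exons of 13 genes overlapped a gene on the opposite strand, whose reads cannot be told apart with the library kit used, and 11 genes had a count that was not whole in at least 1 library.

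Genes with other RIKEN names gave a scale for these counts. The other RIKEN series from testis libraries had 124 tested genes, of which 61 were higher and 1 was lower in the libraries labelled Tmem232-/-, with a median log2 fold change of 0.44. All other RIKEN names had 178 tested genes, of which 14 were higher and 1 was lower, with a median of -0.047. As shares, 65.3% of the tested 1700 series genes, 49.2% of the other testis series and 7.87% of the others were higher. The difference between the lists was not tested.

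**Figure D4:**
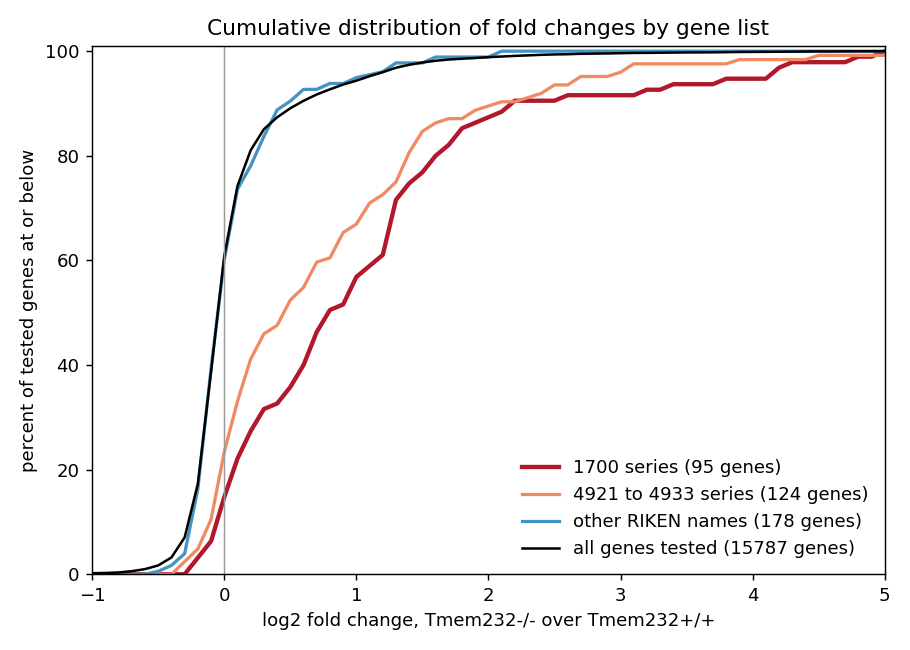
Percent of tested genes at or below each log2 fold change for the 1700 series (95 genes), the other testis series, marked by its clone numbers (124 genes), other RIKEN names (178 genes) and all tested genes (15787). The curve of the other RIKEN names runs along that of all genes, with medians of -0.047 and -0.054, and the curves of both testis series lie to the right, with medians of 0.77 and 0.44.

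The promoters of some genes that rose and of abundant genes that did not pass are shown side by side, with the letters of known spermatogenic motifs marked. They are examples picked without a fixed rule and do not represent the series, whose shares are given below. RefSeq promoters of GRCm38.p6 were matched for 79 genes, and the sequences give the 250 bases before the start in RefSeq, 5′ to 3′ on the strand of the gene. Capitals mark GTTGCC, a site of RFX factors that control ciliary genes, TAACNG, an element of MYB factors that act in spermatocytes, and TGACG, a part of the cAMP response element, each on either strand. Those of 1700008P02Rik (chr3:6620444-6620693, minus strand), 1700024P04Rik (chr13:98984566-98984815, minus strand), 1700016C15Rik (chr1:177729564-177729813, plus strand), 1700001C02Rik (chr5:30465827-30466076, plus strand) and 1700061G19Rik (chr17:56875234-56875483, plus strand) belong to genes that rose. Those of 1700029F12Rik (chr13:97034363-97034612, minus strand) and 1700010I14Rik (chr17:8988083-8988332, plus strand) belong to the most abundant genes, which did not pass. The windows of 1700016C15Rik and 1700029F12Rik lie inside the gene coordinates given above, not before them. These genes are listed with 6 and 5 transcripts, and windows at other starts are not shown.
1700008P02Rik: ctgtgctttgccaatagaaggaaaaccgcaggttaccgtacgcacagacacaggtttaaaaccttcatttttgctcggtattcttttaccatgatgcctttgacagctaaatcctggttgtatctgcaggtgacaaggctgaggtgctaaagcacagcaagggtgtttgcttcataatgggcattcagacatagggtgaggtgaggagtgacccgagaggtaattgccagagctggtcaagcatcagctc
1700024P04Rik: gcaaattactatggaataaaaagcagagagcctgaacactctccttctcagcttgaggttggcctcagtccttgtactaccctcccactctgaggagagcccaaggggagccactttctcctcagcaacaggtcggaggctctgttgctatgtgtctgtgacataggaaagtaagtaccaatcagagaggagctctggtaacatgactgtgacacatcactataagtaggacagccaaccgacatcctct
1700016C15Rik: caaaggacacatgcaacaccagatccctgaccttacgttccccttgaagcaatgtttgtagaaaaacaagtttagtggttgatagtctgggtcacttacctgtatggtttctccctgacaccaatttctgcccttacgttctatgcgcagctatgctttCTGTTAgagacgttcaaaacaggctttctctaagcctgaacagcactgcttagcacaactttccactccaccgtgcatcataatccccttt
1700001C02Rik: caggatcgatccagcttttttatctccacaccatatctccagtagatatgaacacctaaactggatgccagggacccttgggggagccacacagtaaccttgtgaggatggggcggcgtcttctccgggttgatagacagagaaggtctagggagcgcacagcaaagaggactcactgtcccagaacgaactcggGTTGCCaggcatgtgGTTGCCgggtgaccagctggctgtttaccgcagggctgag
1700061G19Rik: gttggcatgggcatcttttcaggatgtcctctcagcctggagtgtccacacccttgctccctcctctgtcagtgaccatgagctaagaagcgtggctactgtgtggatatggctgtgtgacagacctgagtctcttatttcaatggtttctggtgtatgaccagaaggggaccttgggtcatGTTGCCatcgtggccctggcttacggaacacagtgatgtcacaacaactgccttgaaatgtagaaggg
1700029F12Rik: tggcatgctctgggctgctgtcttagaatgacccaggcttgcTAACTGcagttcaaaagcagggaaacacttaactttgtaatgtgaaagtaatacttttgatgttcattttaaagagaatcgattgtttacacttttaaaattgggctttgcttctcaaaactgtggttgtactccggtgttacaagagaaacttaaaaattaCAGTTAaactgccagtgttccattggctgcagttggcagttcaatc
1700010I14Rik: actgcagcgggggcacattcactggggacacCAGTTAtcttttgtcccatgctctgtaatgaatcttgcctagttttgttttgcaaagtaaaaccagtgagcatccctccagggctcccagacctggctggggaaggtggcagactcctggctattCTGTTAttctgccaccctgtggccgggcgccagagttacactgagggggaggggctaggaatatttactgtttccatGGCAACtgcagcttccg

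The promoter of 1700001C02Rik holds GTTGCC in 2 places, which begin 55 and 40 bases before the start, and that of 1700061G19Rik holds it once, 68 bases before. That of 1700016C15Rik holds TAACNG on the other strand. None of these letters stands in the windows of 1700008P02Rik and 1700024P04Rik. 1700029F12Rik holds TAACNG in 2 places, and 1700010I14Rik holds it in 2 places beside a GTTGCC. In windows from 250 bases before to 50 after the start, GTTGCC stood in 24.1% of the 79 genes, in 11 of the 51 that rose and in 8 of the 27 that were tested and did not pass, against 15.8% of 12522 tested genes and 22.1% of the 1281 of these that were higher. TAACNG stood in 32.9%, in 11 of 51 and in 14 of 27, against 22.9% and 25.8%. TGACG stood in 24.1%, in 10 of 51 and in 9 of 27, against 31.6% and 24.8%, and the full element TGACGTCA, which contains it, stood in 1 gene, 1700066M21Rik, against 3.22% and 3.51%. A match describes these letters alone, and the shares were not tested against each other.

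The spread among libraries of one label followed a common order. Among the libraries labelled Tmem232+/+, replicate 3 was the highest in 79 of the 95 genes and replicate 2 the lowest in 81, whereas over all tested genes replicate 3 was the highest in 36.0% and replicate 2 the lowest in 29.9%. Among those labelled Tmem232-/-, replicate 1 was the highest in 69 genes and replicate 3 the lowest in 75, against 31.6% and 27.0% of all tested genes. As a median deviation from the mean of the label on the log2 CPM scale, the series lay at 0.31 in replicate 3 and -0.27 in replicate 2 labelled Tmem232+/+. The round spermatid markers lay at 0.36 and -0.40 there, the elongating spermatid markers at 0.66 and -0.49, and the spermatocyte markers at 0.03 and -0.02. In replicates 1 and 3 labelled Tmem232-/- the series lay at 0.20 and -0.20. The round spermatid markers lay at 0.24 and -0.17 there, the elongating spermatid markers at 0.31 and -0.32, and the spermatocyte markers at 0.15 and 0.03. In replicate 4 of that label the series lay at 0.04, the round spermatid markers at -0.07 and the elongating spermatid markers at 0.14. The part of the markers in the spread of the series was not tested.

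**Figure D5:**
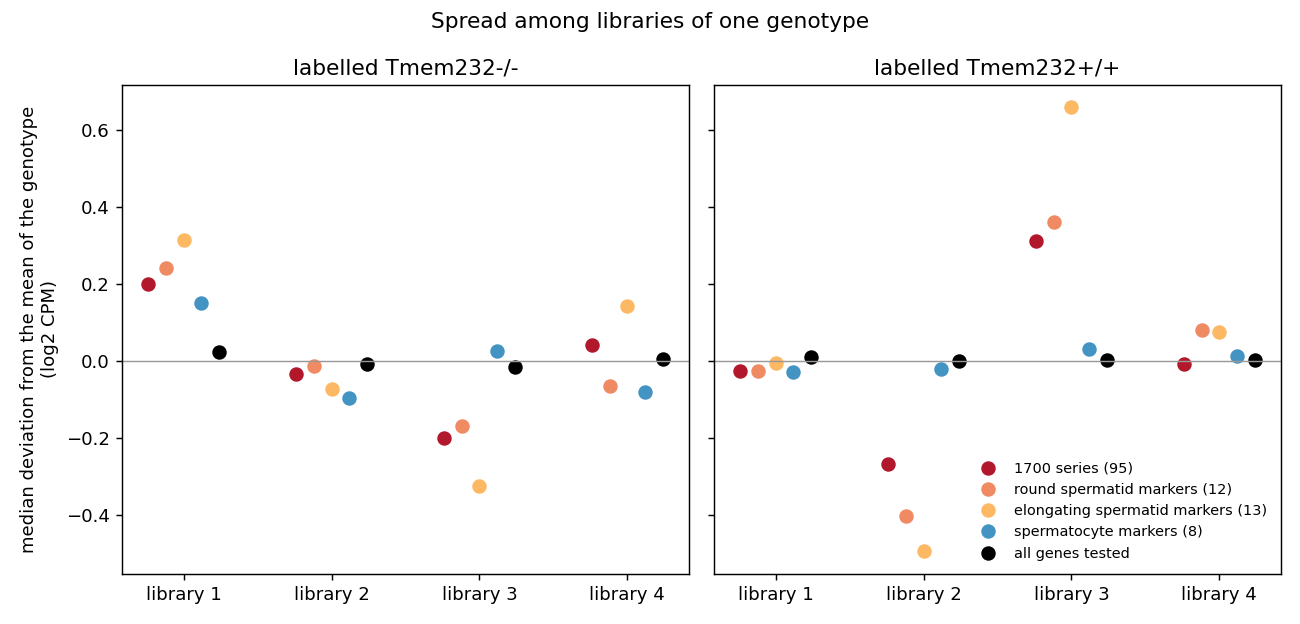
Median deviation of each library from the mean of its genotype on the log2 CPM scale, for the 95 tested genes of the 1700 series, the spermatid and spermatocyte markers and all tested genes. The series and both spermatid lists lie highest in replicate 3 and lowest in replicate 2 labelled Tmem232+/+, while all tested genes stay between -0.015 and 0.023.

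Of the 62 genes called higher, 57 kept an adjusted p under 0.05 in every alternative that tested them and 5 did not. Besides 1700001F09Rik these were 1700007K13Rik, which had an adjusted p of 0.0532 without replicate 1 labelled Tmem232-/-, and 1700013H16Rik, 1700017D01Rik and 1700018B08Rik, with adjusted p in edgeR of 0.0252, 0.0178 and 0.0454. 1700013H16Rik, now Slx2, lost the call when replicate 1 or 4 of the Tmem232-/- label, or replicate 1, 2 or 4 of the Tmem232+/+ label, was left out. Its highest adjusted p over all alternatives was 0.0847. 1700017D01Rik lost it when replicate 1 or 2 of the Tmem232-/- label, or replicate 2 or 4 of the Tmem232+/+ label, was left out, and its highest adjusted p was 0.0676. 1700018B08Rik lost it when replicate 1, 2 or 3 of the Tmem232-/- label, or replicate 2 or 4 of the Tmem232+/+ label, was left out, and its highest adjusted p was 0.156. The last 3 also lost it with the replicate number as a block. No called gene changed direction in any alternative.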

How the data were processed

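Testis RNA of 8 mice, 4 of either genotype, was made into libraries with a TruSeq RNA kit and sequenced in pairs of reads. The sources used here give no tool versions. Per the submitters' processing notes the reads were mapped to GRCm38.p6 with HISAT and Bowtie2 and quantified with StringTie and featureCounts. The authors deposited estimated counts per gene, not normalized, of which 10.7% to 11.2% per library were not whole, and they were rounded here. The authors also deposited a second value per gene, whose unit the table does not name. The values as deposited by the authors were read as FPKM, counts per transcript length and library total, since for genes with a single transcript they gave the same length in every library, and were used for levels between genes. The table also held mean columns and their own fold changes and p-values, which were not used.

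Counts were tested with the quasi-likelihood test of edgeR 4.0.16 in R 4.3.3 after its default filter and TMM scaling, without covariates, on all 15787 genes that passed, with Benjamini-Hochberg adjustment over them. Non-overlap was counted on CPM, and for single genes 4 libraries against 4 cannot give an exact permutation p below 0.0286. Gene models came from GENCODE and promoters from a RefSeq table. Depth of 15428421 to 16350871 counts limits genes with few counts, and exact intervals cover counting error alone.

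Named genes were the 8 with the highest FPKM, the 12 with the largest significant rise at a mean of 1 CPM or more without overlap, the 3 most negative values, the 4 smallest differences at 10 CPM or more, and genes near a fold change of 2. Genes named beside these by role were chosen after their values were seen. Marker lists of 11 cell types or tissues were written from general knowledge, and those beyond spermatids and spermatocytes are given in the closing section. The members and lists were chosen with earlier results of these data known. Alternatives were DESeq2 1.42.0, its size factors or library size in place of TMM, no filter, 10 counts in every library, limma-voom (limma 3.58.1), FPKM as log2(value + 1) with limma, a block for the replicate number, and fits that dropped 1 library at a time. Python 3.11.15 with pandas 2.3.3 was used for tables. No column with per-sample values was left unassigned.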

Additional observations from a re-analysis of the deposited data

Results flagged for a closer look

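Of the 54 groups of 4 libraries tested among named genes, 3 held a library far from the others, where chance gives about 2.7. For each group, the distance of the outermost library from its neighbour was taken as a ratio to the whole range and read by Dixon's test. 1700010I14Rik had 836 CPM in replicate 1 labelled Tmem232-/-, against 733 to 746 CPM in the others, with a ratio of 0.878. 1700008P02Rik had 0.125 CPM in replicate 1 labelled Tmem232+/+, against 0.0605 to 0.0633 CPM, with a ratio of 0.957, which stands for 2 counts against 1. 1700020A23Rik had 0.633 CPM in replicate 3 labelled Tmem232+/+, against 0.182 to 0.246 CPM, with a ratio of 0.858.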

How the results depend on the processing

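The number of genes called higher, 62, ranged from 54 to 66 over the other tools, scalings and filters and from 58 to 67 with single libraries left out. The lowest value came with 10 counts in every library, a filter that removed 8 of the tested genes, all of them called. The number that was at least 2-fold lower was 1 with no filter on low counts and 0 in the other alternatives. The number of genes with every library labelled Tmem232+/+ above the others, 1 with TMM scaling, was 0 with DESeq2, 0 with DESeq2 size factors, 0 with no filter, 2 with library size alone, 2 with FPKM and 0 to 3 with single libraries left out, and the cause was not tested. The log2 fold change of Tmem232 ranged from 0.21 to 0.32 with single libraries left out, and its adjusted p in edgeR rose to 0.0858 and 0.0860 without replicates 1 and 2 labelled Tmem232-/- and to 0.0888 and 0.0892 without replicates 2 and 4 labelled Tmem232+/+. With library size alone and with FPKM, 1700018B08Rik was not called.

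With the replicate number as a block, 59 genes were higher, with 1700013H16Rik, 1700017D01Rik and 1700018B08Rik lost, and the log2 fold change of Tmem232 was 0.26 with an adjusted p of 0.114 in edgeR. The labels do not say whether the numbers pair the mice. Deviations of same-numbered libraries had a correlation of -0.41 to 0.12 and those of other pairs one of -0.38 to 0.46. With 4 libraries per label, these values cannot decide whether mice were paired. Genes with few counts are limited by depth, and depth was not compared with other limits.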

Other observations

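Markers of other cell types were taken from the same fit. Calls were made at an adjusted p under 0.05 in edgeR, where 10.3% of all tested genes were higher and 1.46% were lower. Of 8 spermatogonial markers 3 were lower in the libraries labelled Tmem232-/- and 0 were higher, with a median log2 fold change of -0.35. Of 8 spermatocyte markers 1 was lower, with a median of -0.10. Of 5 markers of peritubular myoid cells 2 were lower, with a median of -0.35. None of the 8 Sertoli cell, 7 Leydig cell, 6 macrophage or 5 endothelial markers passed the test, and their medians were -0.14, 0.46, 0.092 and -0.067. Of the epididymal markers 1 was tested, with a log2 fold change of -2.54 that did not pass, and the 5 tested markers of red blood cells had a median of -0.63, with none passing.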
